A study of Mus musculus with 8 samples.

Results

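The bone morphogenetic protein (BMP) signalling genes examined here were the ligand Bmp2, the receptors Bmpr1a and Bmpr2, the receptor-activated SMADs Smad1 and Smad5, the inhibitory SMADs Smad6 and Smad7, and the target genes Id1, Id2 and Id3. They were taken by gene symbol, and all 10 symbols were found among the 55880 genes of the deposited table. RNA came from small intestinal crypts, the epithelial pockets that hold the stem cells, of C57BL/6N mice before irradiation. There were 4 libraries labelled wild type and 4 labelled miR-29ab1-/-, a genotype named for loss of the microRNA genes Mir29a and Mir29b-1. Ages, the extent of the deletion and any pooling of animals were not stated in the sources used here. The labels do not say that the libraries of a group came from separate animals, so p-values measure the spread between these libraries, which may be technical.

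BMP ligands bind a complex of type I and type II receptor kinases at the cell surface. The activated type I receptor, such as BMPR1A, phosphorylates SMAD1 and SMAD5, which join SMAD4, enter the nucleus and raise transcription of the Id genes and of the feedback inhibitors Smad6 and Smad7. ID proteins bind E proteins, a class of transcription factors, and keep them off DNA. In the intestine BMP activity is known to be higher in differentiated cells towards the villus than at the crypt base, where antagonists secreted by the underlying mesenchyme hold it low and where it restrains stem cell renewal.

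The microRNAs concerned share 1 seed, bases 2 to 8, which is shown in capitals because it is the part that pairs with a target transcript. Mature sequences are from RefSeq (GRCm38.p6).
mmu-miR-29a-3p: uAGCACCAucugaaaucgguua
mmu-miR-29b-3p: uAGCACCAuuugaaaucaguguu
mmu-miR-29c-3p: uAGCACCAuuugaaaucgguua
The complement of that seed in a transcript, TGGTGCT, was present in the 3' UTR of 3 of the 10 genes, Bmpr1a, Bmpr2 and Smad5. It was present in 13.3% of 20710 annotated genes with a 3' UTR of at least 50 bases and in 7 of 66 other BMP and TGF-beta pathway genes. The 3' UTRs of the 10 genes had a median length of 1373 bases, against 988 bases for all genes searched and 2023 for the other pathway genes. Those of Bmpr1a, Bmpr2 and Smad5 were far longer, at 3813, 8532 and 4902 bases. The part of length in the matches was not tested. The 3 sites are shown on the transcript strand, with the match in capitals.
Bmpr1a: tcctgtccataaagTGGTGCTttctgtg
Bmpr2: tgtcacgtagcttcTGGTGCTgctgtac
Smad5: atacccagcttccgTGGTGCTaaggatc
On GRCm38 the matches lie at chr14:34414176-34414182 (minus strand) for Bmpr1a, chr1:59871857-59871863 (plus strand) for Bmpr2 and chr13:56739847-56739853 (plus strand) for Smad5. The Smad5 match alone is followed by an A. A match is a description of the letters and was not tested as a site of action.

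The libraries held 13879472 to 17368666 counts each. The targeted locus was checked first. Mir29a had 0 counts in every library, whereas Mir29b-1 had 0 counts in each wild-type library and 2, 5, 7 and 3 in the libraries labelled knockout. Counts of a hairpin that the genotype should lack contradict a plain reading of the labels, and mature microRNAs are not measured in these libraries, so each group is called by its label. Among neighbouring noncoding RNAs of the locus, Gm27019 had 0 counts in every wild-type library and 227 to 327 in those labelled knockout, and Lncpint had 11 to 16 against 1831 to 2608. Replicate 4 of the labelled knockout stood apart. Its summed enterocyte markers were 30594 CPM (counts per 1000000, on TMM library sizes) against 5588 to 13526 in the other 7 libraries. Its 8 interferon genes summed to 2329 CPM against 267 to 471, and its summed stem cell markers were the lowest of all libraries at 1293 CPM. Not every marker followed its sum. The stem cell marker Lgr5 was at 46.8 CPM there against 43.4 to 98.4 CPM in the other 7 libraries. The enterocyte marker Fabp1 was at 726 CPM against 259 to 1010 CPM. Fold changes, levels and likeness below are therefore given with and without replicate 4 of the labelled knockout. Markers of epithelium were high in all libraries (7847 to 15170 CPM), and those of smooth muscle and endothelium did not exceed 2.32 and 3.16 CPM in any library, with 1 of the 6 endothelial markers at 0 throughout. In bulk RNA, fewer cells of a type and less RNA per cell cannot be told apart.

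All 10 genes passed the filter on low counts, and none was called different between the groups at an adjusted p of 0.05 (edgeR quasi-likelihood test, Benjamini-Hochberg adjustment over 14897 genes). Of all genes tested, 0.0201% were called. None of the 10 had an unadjusted p under that threshold, against 2.7% of all genes tested, none was called by DESeq2, against 0.109%, and none had groups that did not overlap in CPM, against 1.53%. The log2 fold change, labelled knockout over wild type, was above 0 for 8 of the 10 and below 0 for Bmpr1a and Bmpr2, with a median of 0.12 beside 0.011 over all genes. Without replicate 4 of the labelled knockout, 4 of the 10 were above 0 and the median was -0.058, beside -0.0066 over all genes. With library sizes taken from total counts, 6 of the 10 were above 0, and the median of all genes moved by -0.079.

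**Figure D1:**
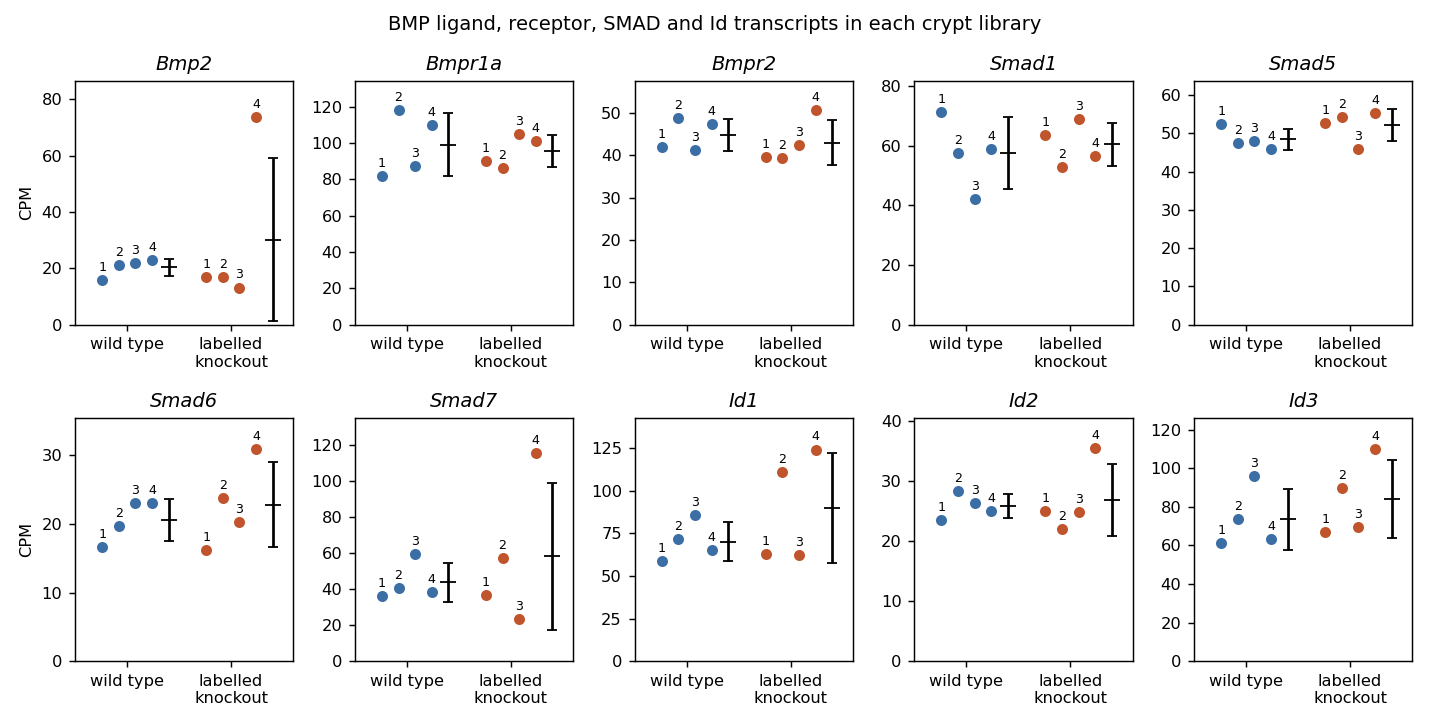
CPM (vertical axes, from 0) of the 10 genes in 4 wild-type (blue) and 4 labelled knockout (orange) libraries, numbered by replicate; black bars give the mean ± SD of each group. In Bmp2 and Smad7 replicate 4 of the labelled knockout sits far above the other 7 libraries, at 73.6 and 116 CPM, and in no panel do the groups separate.

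Bmp2, the ligand of the set (chr2:133552159-133562885, plus strand), had 16.0, 21.1, 21.8 and 22.8 CPM in wild-type replicates 1 to 4. In the labelled knockout it had 17.0, 16.9, 13.2 and 73.6 CPM. Replicate 4 was thus 4.32 times the median of the other 7 libraries, while the other 3 labelled knockout libraries lay in the lower part of the wild-type range or under it. The fold change over all libraries was 1.47 (95% interval 0.729 to 2.98; log2 0.56, SE 0.52; edgeR adjusted p = 0.994). Without replicate 4 it turned to 0.77 (0.616 to 0.963), with an unadjusted edgeR p of 0.0475 and an adjusted p of 1.0. The direction of Bmp2 therefore rested on 1 library.

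The type I receptor gene Bmpr1a (chr14:34410734-34503341, minus strand) had 81.7, 118, 87.2 and 110 CPM in wild type and 90.4, 86.4, 105 and 101 CPM in the labelled knockout. The labelled knockout values all lay inside the wild-type range, and the fold change was 0.962 (0.79 to 1.17; edgeR adjusted p = 0.994), or 0.946 (0.769 to 1.17) without replicate 4. Bmpr2, the type II receptor gene (chr1:59763400-59879014, plus strand), had 42.0, 48.7, 41.3 and 47.3 CPM in wild type and 39.5, 39.3, 42.5 and 50.7 CPM in the labelled knockout. For Bmpr2 the labelled knockout held both the lowest and the highest libraries, and the fold change was 0.959 (0.816 to 1.13; edgeR adjusted p = 0.994), or 0.904 (0.785 to 1.04) without replicate 4. Both transcripts carry the seed match printed above, and their log2 fold changes were -0.057 (SE 0.14) and -0.06 (SE 0.12). Without replicate 4 these were -0.08 (SE 0.15) and -0.15 (SE 0.10). The Bmpr2 value was then larger than its SE but did not pass the test (edgeR unadjusted p = 0.192).

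Smad1 and Smad5 encode the SMADs that BMP receptors phosphorylate. Smad1 (chr8:79338395-79399518, minus strand) had 71.4, 57.6, 42.0 and 59.0 CPM in wild type and 63.6, 52.7, 68.9 and 56.5 CPM in the labelled knockout. The wild-type spread enclosed every labelled knockout library, and the fold change was 1.05 (0.841 to 1.32; edgeR adjusted p = 0.994), or 1.08 (0.85 to 1.36) without replicate 4. Smad5 (chr13:56703010-56742377, plus strand) had the smallest SE of the 10 genes, 0.10 on the log2 scale, and 52.4, 47.5, 48.1 and 45.9 CPM in wild type and 52.8, 54.3, 46.0 and 55.4 CPM in the labelled knockout. For Smad5, the third gene with a seed match, 3 of 4 labelled knockout libraries were above the highest wild-type library. Its fold change was 1.07 (0.937 to 1.23), log2 0.10, and did not pass the test (edgeR adjusted p = 0.994). Without replicate 4 the Smad5 log2 value was 0.076.

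The inhibitory SMADs are made in response to the pathway and block it, SMAD7 also in the TGF-beta branch. Smad6 (chr9:63953076-64022059, minus strand) had 16.7, 19.7, 23.0 and 23.1 CPM in wild type and 16.2, 23.8, 20.3 and 30.9 CPM in the labelled knockout. Here too the highest library was replicate 4 of the labelled knockout and the lowest was its replicate 1. The fold change was 1.10 (0.837 to 1.46; edgeR adjusted p = 0.994), and without replicate 4 the log2 value was -0.036. Smad7 (chr18:75367529-75395935, plus strand) had 36.6, 41.0, 59.9 and 38.6 CPM in wild type and 36.8, 57.3, 23.8 and 116 CPM in the labelled knockout. The labelled knockout therefore held the lowest and the highest Smad7 libraries. The Smad7 fold change of 1.33 (0.74 to 2.37; edgeR adjusted p = 0.994) went with a log2 value of 0.41, which was -0.16 without replicate 4.

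The Id genes are the best known direct targets of BMP-activated SMADs. Id1 (chr2:152736251-152737410, plus strand) had 58.6, 71.4, 85.6 and 65.0 CPM in wild type and 62.8, 111, 62.1 and 124 CPM in the labelled knockout. Replicates 2 and 4 of the labelled knockout were above all wild-type libraries, and replicates 1 and 3 were among the lower wild-type values. Its fold change was 1.28 (0.917 to 1.79), with a log2 value of 0.36 and an SE of 0.25 (edgeR adjusted p = 0.994), and the log2 value was 0.16 without replicate 4. Id3 (chr4:136143497-136145755, plus strand), close to Id1 in its order of libraries, had 61.1, 73.6, 96.0 and 63.5 CPM in wild type and 67.1, 89.6, 69.7 and 110 CPM in the labelled knockout. For Id3 replicate 4 alone was above the highest wild-type library, and the fold change was 1.14 (0.871 to 1.5; edgeR adjusted p = 0.994). Id2 (chr12:25093799-25097140, minus strand) had 23.6, 28.3, 26.3 and 25 CPM in wild type and 25.1, 22, 24.9 and 35.5 CPM in the labelled knockout. Apart from replicate 4, the libraries of Id2 lay within a narrow band, and the fold change was 1.04 (0.838 to 1.29; edgeR adjusted p = 0.994). Without replicate 4 the log2 values of Id3 and Id2 were 0.038 and -0.10.

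**Figure D2:**
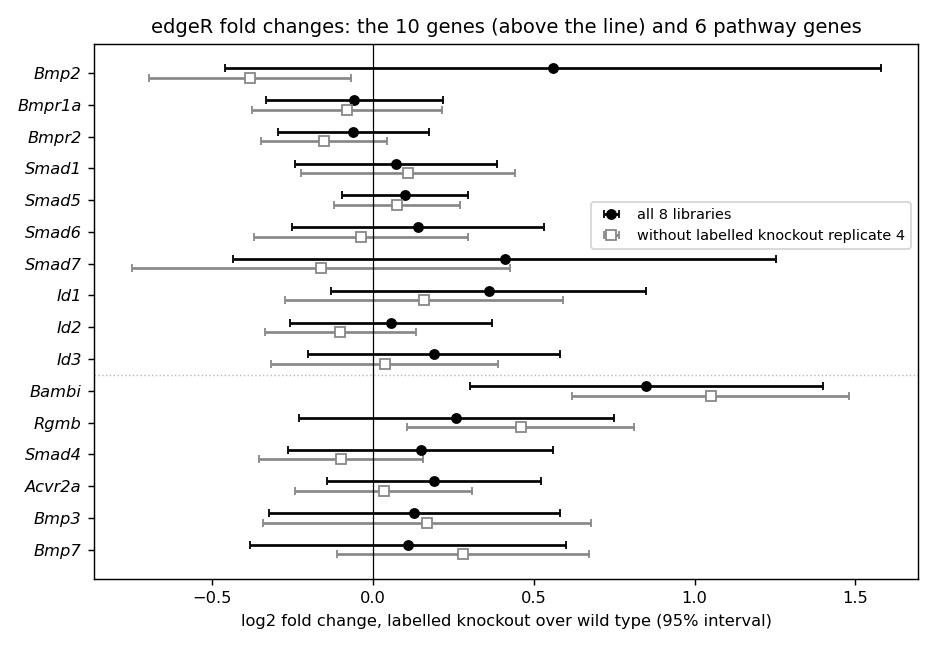
Log2 fold change of labelled knockout over wild type (horizontal axis) with its 95% interval for the 10 genes (above the dotted line) and 6 further pathway genes, from all 8 libraries (filled circles) and without replicate 4 of the labelled knockout (open squares). The intervals of all 10 genes cover 0 over all libraries, and Bmp2 moves from 0.56 to -0.38 when replicate 4 is left out.

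Of the 8 libraries, on TMM library sizes, replicate 4 of the labelled knockout was the highest for 8 of the 10 genes, the exceptions being Bmpr1a and Smad1. That order depended on the library sizes used. In raw counts this library, of 15312334 counts, was the highest for Bmp2, Smad7, Smad6 and Id2 alone. Smad5, for example, had 707 counts there against 856 in wild-type replicate 1, of 14560667 counts. The shares that follow are also on TMM library sizes. Replicate 4 was the highest for 26.9% of all genes tested and for 13 of 34 other BMP pathway genes tested, and it was the lowest for none of the 10 genes against 29.1% of all genes. Smad7 in that library was 3.00 times, and Id1 1.90 times, the median of the other 7 libraries. Without it, the highest library was wild-type replicate 2 for 3 genes, labelled knockout replicate 2 for 3, wild-type replicate 3 for 2 and wild-type replicates 1 and 4 for 1 each. The other libraries also varied in cell type markers. Labelled knockout replicate 3, the lowest library for Bmp2 and Smad7, had the lowest enterocyte marker sum, 5588 CPM. Wild-type replicate 1, the lowest for Id1, Id3 and Bmpr1a, had 6594 CPM against 12233 to 12848 CPM in the other wild-type libraries. The remaining genes were lowest in libraries with higher enterocyte sums. These were labelled knockout replicate 2 for Id2 and Bmpr2 (13526 CPM) and labelled knockout replicate 1 for Smad6 (12524 CPM). Smad5 was lowest in wild-type replicate 4 (12710 CPM) and Smad1 in wild-type replicate 3 (12233 CPM). Paneth cell markers summed to 39474, 49739, 31009 and 14389 CPM in labelled knockout replicates 1 to 4 and to 18312 to 24005 CPM in wild type. T cell markers were highest in wild-type replicate 1 at 327 CPM, followed by labelled knockout replicate 4 at 192 CPM. The part of these markers in the values of the 10 genes was not tested.

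**Figure D3:**
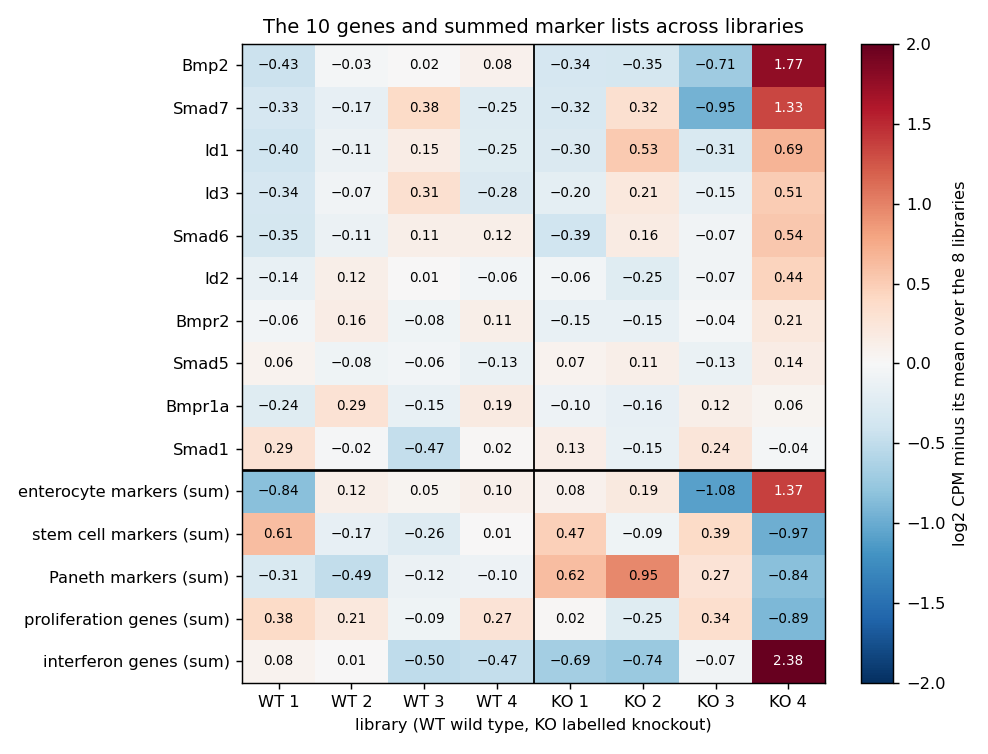
Log2 CPM of the 10 genes (upper rows) and of 5 summed marker lists (lower rows), each minus its mean over the 8 libraries, by library (columns); red is above and blue below the mean. The last column, labelled knockout replicate 4, is 1.77 above the mean for Bmp2, 1.33 for Smad7 and 1.37 for enterocyte markers, and 0.97 below it for stem cell markers.

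Levels between genes were compared per gene length, in the FPKM values the authors deposited. Id1 was the most abundant at 68.4 FPKM on average (range 49.6 to 107 over 8 libraries), followed by Id3 at 43.6 FPKM (33.5 to 61.4). These were at the 95.3rd and 92.3rd percentiles of all genes tested, and Id1 was above Id3, and Id3 above Bmpr1a, in all 8 libraries. Bmpr1a averaged 15.2 FPKM, Smad7 11.2, Id2 10.7, Smad1 9.33, Bmp2 7.07, Smad5 6.72 and Smad6 6.72. Within this middle group several neighbours did not keep their order: Smad7 was above Id2 in 3 of 8 libraries, Bmp2 above Smad5 in 2 and Smad5 above Smad6 in 3. Bmpr2 was the lowest at 2.42 FPKM (2.15 to 2.82), below Smad6 in all 8 libraries. Without replicate 4 of the labelled knockout, the means were 62.9 FPKM for Id1, 41.1 for Id3, 15.1 for Bmpr1a and 2.36 for Bmpr2, at the same places. Smad7 was then below Id2 and Smad1, at 9.19 FPKM, and Bmp2 below Smad5 and Smad6, at 5.13 FPKM. The type II receptor transcript was under the type I receptor transcript in every library.

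**Figure D4:**
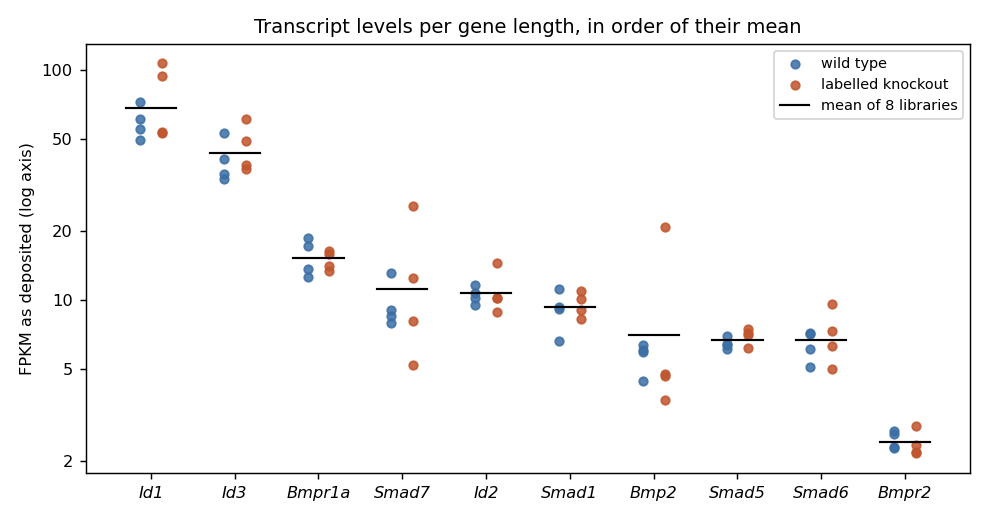
Deposited FPKM (log axis) of the 10 genes in order of their mean, with 1 point per library (blue wild type, orange labelled knockout) and a black line at the mean of 8 libraries. Id1 and Id3 lie highest at means of 68.4 and 43.6 FPKM, Bmpr2 lowest at 2.42 FPKM, and single libraries of Bmp2 and Smad7 reach 20.7 and 25.6 FPKM.

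Likeness between genes was measured as the root mean square difference of centred log2 CPM over the 8 libraries, among 12534 protein-coding genes. Id3 ranked 16th in likeness to Id1, with a difference of 0.155, and Smad6 ranked 202nd with 0.211. The closest to Id1 were Nckap5l (0.126), a low gene of 92 counts in all, and Ccnl2 (0.132), a cyclin gene. The closest to Id3 were Itpkc (0.0765), an inositol phosphate kinase gene, and Pi4k2a (0.0952), a phosphatidylinositol kinase gene. Id2 was closest to Arhgap5 (0.0577) and Mynn (0.0614). For Bmp2 the closest were Tnks1bp1 (0.186) and Mpp5 (0.193), a cell polarity gene, with Smad7 at place 184 (0.347). Without replicate 4 of the labelled knockout, Id3 was at place 25 and Smad6 at place 473 in likeness to Id1, and Smad7 was at place 5743 in likeness to Bmp2. The closest genes also moved, to places 2 and 12 for Nckap5l and Ccnl2, 3 and 8 for Itpkc and Pi4k2a, 31 and 91 for Arhgap5 and Mynn, and 288 and 147 for Tnks1bp1 and Mpp5. The likeness of Bmp2 and Smad7 therefore rested on that library.

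Among the 10 genes, Id3 and Smad6 ranked nearest to Id1, though many genes outside the 10 ranked nearer than Smad6. The promoters of Id1, Id3 and Smad6 were looked up in the RefSeq table (GRCm38.p6, 250 bases before to 50 after the start). It gave those of Id3 and Smad6. Both strands were searched for the SMAD palindrome GTCTAGAC and the GC-rich SMAD element GGCGCC. In the 7 of 10 genes with an entry, the palindrome was found in Smad6 alone, against 0.213% of 32851 promoters. The GC-rich element was found in Bmpr1a, Bmpr2, Id2 and Smad5, against 11.9%. These shares are per promoter entry, whereas a gene was counted if any of its entries matched. The 7 genes had 9 entries, and not all entries of Smad5 held the element. The Smad6 window (chr9:64022010-64022309, minus strand) has the palindrome in capitals, and the Id3 window (chr4:136143572-136143871, plus strand) holds neither set of letters.
Smad6: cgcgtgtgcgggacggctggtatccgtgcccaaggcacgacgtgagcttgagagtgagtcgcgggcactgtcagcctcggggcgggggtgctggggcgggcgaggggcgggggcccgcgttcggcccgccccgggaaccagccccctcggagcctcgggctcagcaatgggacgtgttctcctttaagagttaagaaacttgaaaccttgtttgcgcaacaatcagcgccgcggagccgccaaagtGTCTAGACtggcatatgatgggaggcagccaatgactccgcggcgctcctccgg
Id3: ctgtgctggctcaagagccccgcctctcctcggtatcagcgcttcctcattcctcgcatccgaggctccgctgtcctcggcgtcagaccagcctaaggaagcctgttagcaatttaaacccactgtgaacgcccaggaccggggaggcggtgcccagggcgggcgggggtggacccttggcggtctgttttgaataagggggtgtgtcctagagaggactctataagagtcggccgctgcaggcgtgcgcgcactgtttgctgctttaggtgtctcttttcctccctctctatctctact
These matches are descriptions, and binding was not measured.

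The rest of the BMP pathway was read from a list of 57 other ligands, receptors, SMADs, antagonists, regulators and targets. Of these, 34 passed the filter and none was called in either direction (edgeR, against 0.0201% of all genes tested), with 24 log2 fold changes above 0 and 10 below, a median of 0.064, and 2 unadjusted p-values under 0.05. Without replicate 4 of the labelled knockout, 17 of the 34 were above 0 and the median was -0.00074. DESeq2 called none of the 34 either. None of the 10 genes, and 3 of the 57, Bambi, Fstl1 and Msx1, were in the 670-gene heat map table that the authors deposited. That is 5.26% of the 57, beside 1.2% of all genes in the whole table. Among tested genes it was 2 of the 34, beside 3.08% of all 14897 genes tested. DESeq2 on the same 8 libraries also gave 670 genes with an unadjusted p under 0.05, with 3 of the 57 and none of the 10 among them. Whether these are the same genes was not checked. The heat map table may repeat that test, so it is not a separate observation.

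Of the other ligands, 4 of 11 were tested. Bmp3, a ligand known to oppose other BMPs, had 30.7 to 43.0 CPM in wild type and 42.6, 25.6, 57 and 37.7 CPM in the labelled knockout. Bmp7 had 14.3 to 20.6 CPM in wild type and 22.4, 25, 16.4 and 11.6 CPM in the labelled knockout. Labelled knockout libraries lay above, inside and below the wild-type range for both ligands, with log2 fold changes of 0.13 (SE 0.23) and 0.11 (SE 0.25), or 0.17 and 0.28 without replicate 4. Bmp4, a ligand known mainly from the mesenchyme, was too low to be tested, with 105 counts in all. Of these, 96 were in replicate 4 of the labelled knockout. Fibroblast markers in that library summed to 6.58 CPM, inside the range of 0.336 to 32.5 CPM of the wild-type libraries. The source of the Bmp4 counts was not tested.

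Of the other receptors and co-receptors, 6 of 8 were tested, and Bmpr1b, the second type I BMP receptor gene, had 0 counts in every library. Rgmb, encoding a BMP co-receptor, averaged 15.9 FPKM, beside 15.2 FPKM for Bmpr1a. It had 145, 87.2, 106 and 109 CPM in wild type and 185, 134, 141 and 77.4 CPM in the labelled knockout, so that replicate 4 was here the lowest library. Its log2 fold change was 0.26 (SE 0.25), and 0.46 (SE 0.18) without replicate 4, where the unadjusted edgeR p was 0.0332 and the adjusted p 1.0. Acvr2a, a type II receptor gene shared with activin, had 37.5 to 49.8 CPM in wild type and 37.2 to 65.2 CPM in the labelled knockout, a log2 fold change of 0.19 (SE 0.17), or 0.034 without replicate 4. Rgma, a low co-receptor gene of 93 counts in all, had a log2 value of -0.47 (SE 0.37), or -0.37 without replicate 4.

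Smad4, the partner of all receptor-activated SMADs, was the most abundant SMAD transcript at 39.9 FPKM. It had 141, 165, 119 and 140 CPM in wild type and 124, 132, 140 and 232 CPM in the labelled knockout, and its log2 fold change of 0.15 (SE 0.21) was -0.097 without replicate 4. Smad3, which acts in the TGF-beta and activin branch, had a log2 value of 0.054 (SE 0.11), and it was 0.039 without replicate 4 and -0.037 with library sizes from total counts.

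Among 14 antagonists, 4 were tested. Noggin (Nog), Cer1 and Sostdc1 had 0 counts in every library, and Grem1 had 8 counts in all. Bambi, a membrane pseudoreceptor that blocks BMP and TGF-beta receptors, had 13.5, 10.8, 14.4 and 11.2 CPM in wild type and 33.4, 26.7, 17.3 and 12.6 CPM in the labelled knockout. Labelled knockout replicates 1 to 3 were above every wild-type library, and replicate 4 lay inside the wild-type range. The Bambi fold change was 1.80 (1.23 to 2.64), with a log2 value of 0.85 and an SE of 0.28. It did not pass the test over all genes (edgeR unadjusted p = 0.0143, adjusted p = 0.994). Without replicate 4 the fold change was 2.06 (1.53 to 2.78; edgeR unadjusted p = 0.000978, adjusted p = 0.793). For all libraries, the authors' deposited table gave a log2 value of 0.85 and an adjusted p of 0.701 (DESeq2, per the submitters' notes). Summed Paneth markers were likewise above every wild-type library in labelled knockout replicates 1 to 3 and low in replicate 4. The sum was highest in replicate 2, whereas Bambi was highest in replicate 1. Of the 5 markers summed, Lyz1 alone was above every wild-type library in each of replicates 1 to 3. Defa24, for example, was at 8315 CPM in labelled knockout replicate 3 against 9936 CPM in wild-type replicate 3. The part of Paneth markers in the Bambi values was not tested.

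Fstl1, a secreted follistatin-like protein gene, was named after its values were seen. It had 4.84, 1.25, 0.994 and 0.807 CPM in wild type and 18, 5.14, 6.84 and 2.90 CPM in the labelled knockout, and the groups overlapped through wild-type replicate 1 and labelled knockout replicate 4. Its fold change was 4.14 (1.58 to 10.9), with an unadjusted edgeR p of 0.0178 and an adjusted p of 0.994. Without replicate 4 the fold change was 5.04 (1.93 to 13.2; edgeR unadjusted p = 0.0117, adjusted p = 1.0). Fibroblast markers were highest in wild-type replicate 1 at 32.5 CPM and stood at 1.69 CPM in labelled knockout replicate 1, the highest library of Fstl1. The part of fibroblasts in the Fstl1 values was not tested. Nbl1, a DAN family antagonist gene, had 12.9 to 44.7 CPM in wild type and 8.49 to 51.1 CPM in the labelled knockout, a wide spread within both groups, and a log2 value of 0.16 (SE 0.53) that was -0.013 with limma-voom and -0.30 without replicate 4. Twsg1, a secreted BMP-binding protein gene, had a log2 value of -0.10 (SE 0.20), or -0.0041 without replicate 4.

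**Figure D5:**
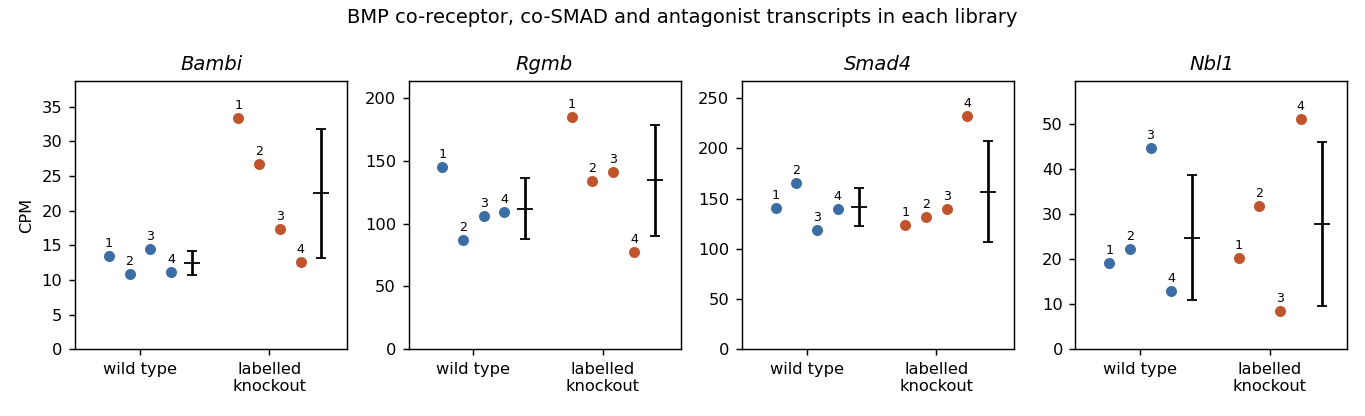
CPM (vertical axes, from 0) of Bambi, Rgmb, Smad4 and Nbl1 in 4 wild-type (blue) and 4 labelled knockout (orange) libraries, numbered by replicate, with the mean ± SD of each group in black. Bambi lies above the wild-type range in labelled knockout replicates 1 to 3 and inside it in replicate 4, at 12.6 CPM, whereas Smad4 peaks in replicate 4, at 232 CPM.

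All 11 regulators of receptors and SMADs were tested, with 8 log2 fold changes above 0 and a median of 0.037, or 4 above 0 and a median of -0.029 without replicate 4. Fkbp1a, whose protein binds type I receptors and keeps them inactive, had 119 to 158 CPM in wild type and 140 to 146 CPM in the labelled knockout, a log2 value of 0.0086 (SE 0.12). Ski, a co-repressor of SMADs, had a log2 value of 0.037 (SE 0.10). Without replicate 4 these were 0.0026 and 0.013. Smurf1, a ubiquitin ligase for SMAD1 and SMAD5, had 35.8 to 37.9 CPM in wild type and 40.3, 36.8, 35.7 and 56.2 CPM in the labelled knockout. The Smurf1 log2 value of 0.20 (SE 0.15) was 0.033 without replicate 4. With library sizes from total counts the values of Fkbp1a and Ski were -0.069 and -0.051.

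Of 9 other targets and partners of the ID proteins, 6 were tested. The E protein gene Tcf3 had 103 to 134 CPM in wild type and 89.8 to 123 CPM in the labelled knockout, a log2 value of -0.11 (SE 0.14), or -0.035 without labelled knockout replicate 4. Tcf12, another E protein gene, had 80.4 to 96.3 CPM in wild type and 106, 100, 102 and 74.6 CPM in the labelled knockout. For Tcf12, labelled knockout replicates 1 to 3 were above every wild-type library and replicate 4 was below all of them, and the log2 value was 0.12 (SE 0.13; edgeR adjusted p = 0.994). Without replicate 4 it was 0.22 (SE 0.097; edgeR unadjusted p = 0.0458, adjusted p = 1.0). Id4, the fourth Id gene, was lower than the other Id genes, at 1.01 FPKM, with 3.00, 3.45, 7.95 and 3.43 CPM in wild type and 1.41 to 4.95 CPM in the labelled knockout. Its log2 value of -0.40 (SE 0.43) became 0.042 when wild-type replicate 3 was left out, and -0.14 when labelled knockout replicate 4 was.

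In the TGF-beta branch, which uses related receptors and other SMADs, 7 of 10 genes were tested and none was called (edgeR and DESeq2), with no unadjusted edgeR p under 0.05, 4 log2 fold changes above 0 and a median of 0.00093. Without replicate 4 of the labelled knockout, 4 were above 0, the median was 0.0044, and 1 gene, Acvr1c, had an unadjusted p under 0.05. Acvr1c, a type I receptor gene for nodal and activins, had 28.8, 15.6, 26 and 24.5 CPM in wild type and 35.1, 40.5, 25.9 and 27.3 CPM in the labelled knockout. Its fold change was 1.36 (1.02 to 1.82; edgeR unadjusted p = 0.0676, adjusted p = 0.994), the normal interval being narrower than the test. Without replicate 4 it was 1.43 (1.06 to 1.93; edgeR unadjusted p = 0.0446, adjusted p = 1.0), and the unadjusted edgeR p was also under 0.05 without labelled knockout replicate 3 and without wild-type replicate 1, at 0.039 and 0.0426, with adjusted p of 0.576 and 0.999. The groups overlapped for Acvr1c, with labelled knockout replicates 1 and 2 above the wild-type range. Tgfbr1 and Acvr1b, the type I receptors for TGF-beta and activin, had log2 values of 0.046 (SE 0.099) and 0.00093 (SE 0.15). They were 0.087 and -0.082 without replicate 4, and -0.025 and -0.092 with library sizes from total counts.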

How the data were processed

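RNA from 8 libraries of small intestinal crypts was extracted with TRIzol and sequenced from libraries that keep strand, per the labels' protocols. The submitters' processing notes name HISAT2 and DESeq2, with no version. Read counter, strand setting and genome build: not given in the sources used here. GENCODE M21 (GRCm38) shares 55144 identifiers with the table, 99.5% of them at identical positions, so that build is used. Counts per gene are whole numbers, per the file headers. The FPKM values the authors deposited equal counts over gene length with 1 scale per library. The authors' group means are a signal in the deposited table. From the authors' deposited table, which also has log2 fold changes and p-values, a value is printed only where it is credited.

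Counts were tested across all genes with edgeR 4.0.16 (R 4.3.3): quasi-likelihood, robust, TMM, filterByExpr, Benjamini-Hochberg, threshold 0.05. The SE is the absolute log2 fold change over the square root of F, and 95% intervals are normal approximations (1.96 SE). Log2 CPM use a prior count of 2. Depth was 13879472 to 17368666 counts per library, and libraries of a group all differed beyond sampling noise (lowest chi-square over degrees of freedom 32.4). Records overlapping the 10 genes held at most 3 counts in a library. The tests were checked on simulated data. Alternatives were RLE and total-count library sizes, no filter, at least 5 CPM in 4 libraries, DESeq2 1.42.0, limma-voom (limma 3.58.1), a replicate block and leaving out each library.

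The 10 genes, the 29 gene lists and the tests were chosen with earlier results of these data known. Named were the 10 genes. Named from each pathway list were the tested genes past the threshold, the 2 with the highest mean FPKM and the 1 with the smallest p. For Id1, Id2, Id3 and Bmp2, the 2 protein-coding genes nearest in centred log2 CPM were named.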

Additional observations from a re-analysis of the deposited data

Results flagged for a closer look

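In 64 groups of 4 libraries, 4 held a library far from the other 3 by Dixon's criterion, and chance flags about 1 in 20 groups. Bmp2 in labelled knockout replicate 4 was at 73.6 CPM, against 13.2 to 17.0 CPM in the other 3 labelled knockout libraries. Smad4 in the same library was at 232 CPM, against 124 to 140 CPM. Id4, the Id gene of lowest level, was at 7.95 CPM in wild-type replicate 3, against 3.00 to 3.45 CPM in the other wild-type libraries. Summed enterocyte markers were at 6594 CPM in wild-type replicate 1, against 12233 to 12848 CPM in the other wild-type libraries.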

How the results depend on the processing

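None of the 10 genes, of the other BMP pathway genes or of the TGF-beta branch was called under any of the 15 alternatives. Over all genes 3 were called, 5 with no filter on low counts and 21 with DESeq2; the cause was not tested. Same-numbered libraries deviated together with correlations of 0.0745, 0.0345, -0.388 and -0.0871, so the numbers do not pair them, and the fit with a replicate block called 2 genes, none of them among the 10. Of 433 log2 fold changes of 29 named genes under alternatives, 404 kept their sign and 29 reversed, the cause not tested; among the 10 genes Bmpr2, Smad5, Id1 and Id3 never reversed. With total-count library sizes the values were -0.0064 for Smad1, -0.035 for Id2, -0.037 for Smad3, -0.069 for Fkbp1a, -0.051 for Ski, -0.092 for Acvr1b and -0.025 for Tgfbr1. With limma-voom Nbl1 was at -0.013. Leaving out each library in turn gave ranges of -0.38 to 0.81 for Bmp2, -0.14 to 0.039 for Bmpr1a, -0.051 to 0.19 for Smad1, -0.036 to 0.27 for Smad6, -0.16 to 0.67 for Smad7, -0.10 to 0.14 for Id2, -0.078 to 0.30 for Bmp3, -0.059 to 0.28 for Bmp7, -0.097 to 0.25 for Smad4, -0.021 to 0.11 for Smad3, -0.30 to 0.61 for Nbl1, -0.07 to 0.063 for Fkbp1a, -0.0042 to 0.076 for Ski, -0.64 to 0.042 for Id4 and -0.085 to 0.11 for Acvr1b. The reversals of Bmp2, Smad6, Smad7 and Smad4 came only without labelled knockout replicate 4. Id2, Nbl1 and Acvr1b reversed without it and also under other alternatives. The 95% intervals of Bmp2 and Smad7, up to 2.98-fold and 2.37-fold, do not exclude a change of 2-fold. The lowest of the 10 genes had 2651 counts in all. Levels and likeness without labelled knockout replicate 4 were added after seeing the data.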
